A study of Mus musculus with 5 samples.

Results

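The 10 genes described here belong to the bone morphogenetic protein (BMP) and Notch pathways. Bmp2, Bmp6, Bmp8b, Bmpr1a, Smad7 and Skor1 act in BMP and SMAD signalling, and Dll1, Dll4, Neurl1b and Hes1 in Notch signalling. They were taken by gene symbol from the 2 deposited tables of CpG positions whose methylation differed between G5 and G0 common myeloid progenitors. All 10 had entries, as they were chosen with earlier results of these data known. They held 28 of the 4688 listed positions, while the tables name 2797 genes in all. Of the 28 positions 21 were higher in G5 and 7 lower, and no gene had positions in both directions.

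Common myeloid progenitors (CMP) are the bone marrow cells that give rise to granulocytes, monocytes, red cells and platelets. They were sorted from mice mainly of the C576BL/6 background and profiled by reduced representation bisulfite sequencing, which reads cytosine methylation next to restriction sites in CpG-rich DNA. The 3 G0 pools came from TERTER/+ mice, called normal in the labels, and the 2 G5 pools from TERTER/ER mice with short telomeres. Mice of both groups therefore have at least 1 copy of TERT-ER, in which telomerase is joined to part of the oestrogen receptor and needs a ligand to act. The ages of the mice, the number per pool and any ligand treatment are not stated in the labels. A pool yielded 14000 to 30000 cells and at least 45 ng of DNA, and a library 29 to 38 M reads, of which about 63% aligned. The read depth behind a single level is unknown. Methylation was the only readout, so the identity of the sorted cells was not checked against marker genes, and a shift in cell make-up cannot be told apart from a shift within cells.

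BMP ligands bind type I and type II receptor kinases, which phosphorylate SMAD proteins that enter the nucleus and act on target genes. Smad7 blocks this step at the receptor and Skor1 acts on it in the nucleus. In the Notch pathway, ligands of the Delta and Jagged families on one cell bind Notch receptors on its neighbour. Ubiquitin ligases of the Neuralized and Mind bomb families promote uptake of the ligand, and the freed intracellular part of the receptor switches on genes such as Hes1. Both pathways act in the formation and differentiation of blood cells.

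The stretches that hold the main positions are printed from the GRCm38 genome, the assembly of mm10, on the plus strand from 5′ to 3′, with listed CpGs in capitals. Coordinates give the plus-strand cytosine of each CpG, counted from 1. The first stretch is shown because it holds the densest run of listed CpGs among the 10 genes, 11 CpGs in a coding exon of Neurl1b.
Neurl1b, chr17:26439048-26439245: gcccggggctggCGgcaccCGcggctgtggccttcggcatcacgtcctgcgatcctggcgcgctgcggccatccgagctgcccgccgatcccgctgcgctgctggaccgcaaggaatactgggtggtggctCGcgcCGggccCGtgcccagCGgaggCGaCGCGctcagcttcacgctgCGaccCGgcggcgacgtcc
The next 4 lie at gene starts, and carry the promoter positions of 3 ligands and 1 receptor. The stretches of Bmp2 and Dll1 are kept short since they lie in untranslated exon sequence.
Bmp2, chr2:133552167-133552194: gccgggagggagcCGgcaggcggcgtct
Dll1, chr17:15375786-15375813: gagtgttctagacCGgtatctcttgcac
Bmp8b, chr4:123104806-123104857: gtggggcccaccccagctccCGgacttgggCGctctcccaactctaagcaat
Bmpr1a, chr14:34503338-34503379: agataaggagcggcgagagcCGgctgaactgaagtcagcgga
The last one is shown because its listed CpGs, upstream of Dll4, had unlike levels in G0 within 93 bp.
Dll4, chr2:119324121-119324213: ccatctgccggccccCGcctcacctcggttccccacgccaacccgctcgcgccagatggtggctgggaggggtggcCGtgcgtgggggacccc
In the chromosomes of GRCm38, 1 exact copy of each of these stretches was found.

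Among the BMP ligands all listed positions were lower in G5, and those of Bmp2 and Bmp8b lay in promoter CpG islands. Bmp2, a ligand best known for bone and heart formation, had 1 position, 22 bp downstream of the authors' start site, at chromosome 2, 133552180. Its level was 16.0%, 15.6% and 14.9% in the G0 pools and 1.37% and 4.92% in the G5 pools. The G0 pools were close together and all above both G5 pools, at 15.5% ± 0.563 (SD, n = 3) against 3.14% ± 2.51 (SD, n = 2). The difference of -12.4 points (SE 4.003) missed the threshold of 0.05 in limma's moderated test across all listed positions (adjusted p = 0.0536).

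Bmp8b, whose product acts in germ cell formation and in heat production by brown fat, had 2 positions, 340 and 330 bp upstream of its start site. These neighbours are the capitals of the Bmp8b stretch above. At -340 bp the G0 pools had 3.70%, 13.98% and 21.8% and the G5 pools 0% and 3.95%. The groups overlapped there, since G0 pool 1 lay below G5 pool 2. At -330 bp the G0 pools had 17.3%, 30.9% and 12.6% and the G5 pools 6.38% and 2.74%, without overlap. The highest G0 pool was pool 3 at one CpG and pool 2 at the other. Averaged over both, levels were 16.7% ± 5.98 (SD, n = 3) and 3.27% ± 0.108 (SD, n = 2), and neither position passed limma (adjusted p = 0.134 and 0.0722).

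The single position of Bmp6, a ligand that sets hepcidin and thus iron balance, was of another kind. It lay 47473 bp upstream of the start site, at chromosome 13, 38298243, in no annotated gene, island or shore, so its link to Bmp6 is by distance only. Levels were 82.4%, 80.5% and 89.7% in the G0 pools and 68.9% and 52.7% in the G5 pools. All G0 pools were above both G5 pools, and the G5 pools were themselves far apart. Methylation fell by 23.4 points (SE 6.25; limma, adjusted p = 0.0460), and without G5 pool 2 the difference was -15.3 points.

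The receptor gene was listed in the other direction from the ligands. Bmpr1a, the type I receptor of Bmp2 and Bmp4, had 1 promoter island position at chromosome 14, 34503358. It lay 813 bp upstream of the authors' RefSeq start and 17 bp upstream of the first base of the gene in the GENCODE annotation. The G0 pools stood at 2.88%, 9.20% and 4.60% and the G5 pools at 19.2% and 16.9%, so every G5 pool was above every G0 pool. The means were 5.56% ± 3.26 (SD, n = 3) and 18.0% ± 1.67 (SD, n = 2), a difference of 12.5 points (SE 4.28) that missed the threshold (limma, adjusted p = 0.0582).

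Of the inhibitors, Smad7 was lower in G5 and Skor1 higher. Smad7 encodes the inhibitory SMAD that BMP and TGF-beta signals themselves induce. Its 2 positions lay in a shore, the flank of a CpG island, 25796 and 25594 bp upstream of the start site on chromosome 18, outside annotated genes. The nearer one stood at 94.6%, 87.0% and 90.0% in the G0 pools and at 71.3% and 62.9% in the G5 pools. Methylation fell by 23.5 points there (SE 4.89; limma, adjusted p = 0.0426), and the groups did not overlap. The farther one stood at 95.7%, 98.8% and 94.6% in the G0 pools and at 77.2% and 89.7% in the G5 pools. The groups were apart there too, with G5 pool 2 only 4.94 points below the lowest G0 pool, and the test was missed (limma, adjusted p = 0.0712).

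Skor1 encodes a SKI family corepressor that binds SMADs and is best known from the nervous system. It had 3 positions on chromosome 9, all in CpG islands inside the gene. They lay 1389 and 2244 bp downstream of the start site in coding exon sequence and 4490 bp downstream in an intron. The intronic position stood at 3.53%, 4.08% and 0% in the G0 pools and at 14.8% and 15.4% in the G5 pools. The exonic one at 2244 bp stood at 0.699%, 5.59% and 2.70% in the G0 pools and at 17.5% and 13.2% in the G5 pools. At both, the groups were apart, and limma's threshold was just missed (adjusted p = 0.0535 and 0.0579). The position at 1389 bp stood at 6.58%, 5.38% and 13.5% in the G0 pools and at 39.9% and 7.53% in the G5 pools. Only G5 pool 1 was high there, and G5 pool 2 lay within the range of the G0 pools. Averaged over the 3 positions Skor1 had 4.67% ± 0.946 (SD, n = 3) and 18.1% ± 8.50 (SD, n = 2), a difference of 13.4 points that was 7.38 without G5 pool 1.

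**Figure D1:**
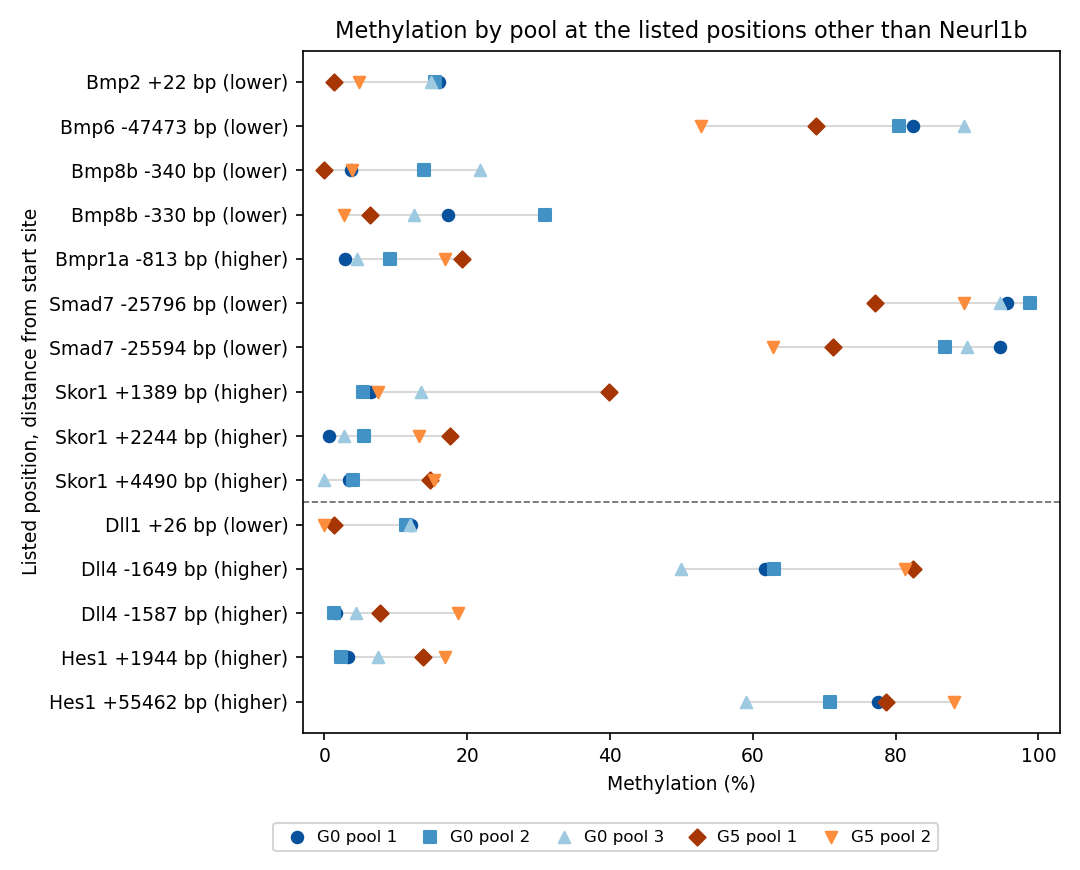
Methylation in percent (horizontal axis) at the 15 listed positions outside Neurl1b (vertical axis, with distance from the authors' start site), 1 symbol per pool, 3 G0 pools in blue and 2 G5 pools in orange; the dashed line parts BMP/SMAD genes from Notch genes. Bmp6, Smad7, the Dll4 position at -1649 bp and the distal Hes1 position lie at high levels, the others below 40%, and G0 and G5 symbols overlap at Bmp8b -340 bp and Skor1 +1389 bp.

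The Notch ligands were listed in opposite directions. Dll1, a Delta ligand of lymphocyte development, had 1 position in a promoter island at chromosome 17, 15375799. It lay 26 bp downstream of the authors' start site, in untranslated exon sequence and in an exon of the non-coding A930024N18Rik on the opposite strand. Its levels were 12.2%, 11.4% and 11.9% in the G0 pools and 1.37% and 0% in the G5 pools. The G0 pools had an SD of 0.390 points and stood clear of both G5 pools, while the difference of -11.2 points (SE 3.91) missed the threshold (limma, adjusted p = 0.0596).

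Dll4, the Delta ligand of vessel sprouting and of T cell commitment in the thymus, had 2 positions in an island shore. They lay 1649 and 1587 bp upstream of its start site on chromosome 2, in an intron of the antisense gene Gm14207. The first stood at 61.7%, 63.0% and 50% in the G0 pools and at 82.4% and 81.4% in the G5 pools. It rose by 23.7 points (SE 5.38; limma, adjusted p = 0.0443). The second stood at 1.69%, 1.33% and 4.48% in the G0 pools and at 7.79% and 18.7% in the G5 pools, a difference of 10.7 points that missed the threshold (limma, adjusted p = 0.0887). Although both lie in the Dll4 stretch above, the G0 mean was 58.2% at one and 2.50% at the other, and the groups were apart at both.

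Bmp2 and Dll1 were the members within 50 bp of the authors' start sites, and both were lower in G5. Measured from the first base of the gene in GENCODE, the members that close were Bmp2, at 21 bp and lower, and Bmpr1a, at 17 bp and higher, while Dll1 lay 1073 bp away. In the tables as a whole 162 positions lay within 50 bp of the authors' start sites, of which 75, or 46.3%, were lower. Of all 925 listed positions in promoter islands 42.9% were lower. The 10 genes had 5 such positions, of which the 4 of Bmp2, Bmp8b and Dll1 were lower.

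Neurl1b, a ubiquitin ligase that promotes ligand uptake in the signal-sending cell, held 13 of the 18 Notch positions. All were higher in G5 and lay 24096 to 24269 bp downstream of the start site, in a CpG island within the coding exon from 26438667 to 26439359 of chromosome 17. The 13 positions cover 11 CpGs, since 2 CpGs were listed on both strands. They form 2 groups, one of 2 CpGs and one of 9 CpGs within 55 bp, as the capitals in the Neurl1b stretch show. From the first to the last listed CpG the genome has 26 CpGs, so 15 were not listed. All listed ones lay within 24 bp of a CCGG, the site that the usual enzyme of the method cuts, and 14 of the 26 CpGs lay that close.

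Averaged over its 13 positions Neurl1b stood at 86.3%, 64.6% and 85.9% in the G0 pools and at 95.5% and 95.5% in the G5 pools. G0 pool 2 was the lowest of the 5 pools at 13 of 13 positions, ranging from 31.8% to 78.5%. G0 pools 1 and 3 reached 97.2% and 97.1%. With 9 of the 11 CpGs within 55 bp and 2 CpGs listed on both strands, these are not 13 separate observations. The group means were 78.9% ± 12.4 (SD, n = 3) and 95.5% ± 0.0384 (SD, n = 2). Their difference of 16.6 points was 9.42 without G0 pool 2. Among all 1091 higher positions with a mean G0 level over 50%, G0 pool 2 was the lowest of the 5 pools at 35.7%, so it was not low everywhere.

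Single positions of Neurl1b differed in level and in the order of G0 pools 1 and 3. Of these pools, pool 1 was the higher at 26439067 and pool 3 at 26439060. The CpG at 26439067 was the least methylated, with 57.7%, 31.8% and 54.3% in the G0 pools and 79.2% and 74.4% in the G5 pools. This position rose by 28.9 points (SE 8.37; limma, adjusted p = 0.0483) and was the one of 13 that passed. Its neighbour at 26439060 stood at 86.5%, 63.6% and 97.1% in the G0 pools and at 100% in both G5 pools. Both G5 pools were fully methylated at 3 of the 13 positions. The groups were apart at 12 positions, and at the remaining one G0 pool 1, at 97.2%, lay between the G5 pools at 96.4% and 97.2%. The other 12 positions had adjusted p-values of 0.0501 to 0.215 in limma's test.

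**Figure D2:**
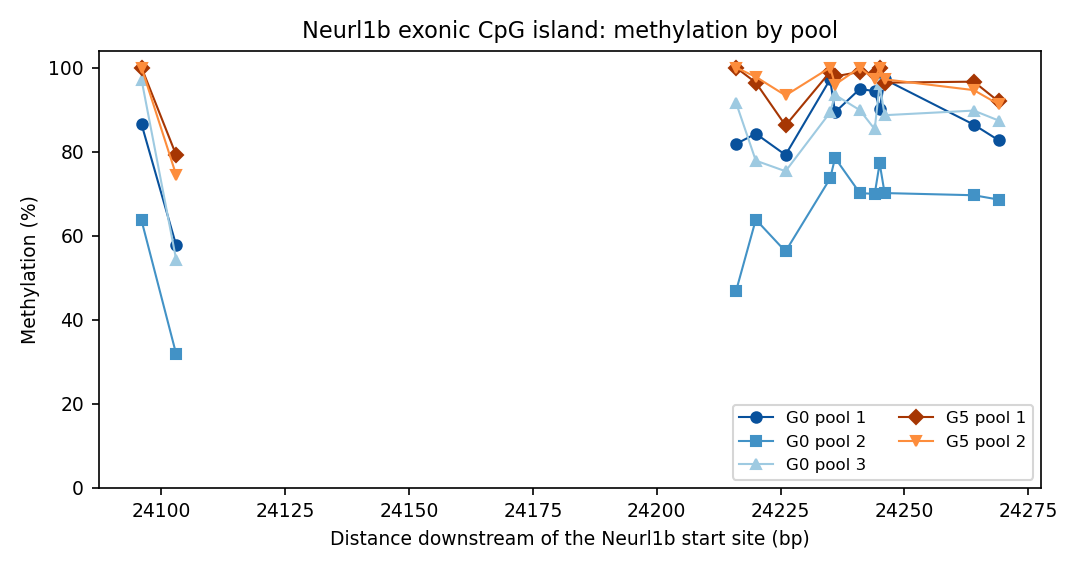
Methylation in percent (vertical axis) at the 13 listed Neurl1b positions against their distance downstream of the authors' start site in bp (horizontal axis), 1 line per pool. G0 pool 2 runs below the other pools at every position, and at 12 of the 13 positions all 3 G0 pools lie below both G5 pools.

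Hes1, the basic helix-loop-helix repressor that Notch switches on, had 2 positions on chromosome 16. One lay in the coding sequence, 1944 bp downstream of the start site in an island shore, and stood at 3.39%, 2.40% and 7.57% in the G0 pools and at 13.8% and 16.9% in the G5 pools. The other lay 55462 bp downstream, outside annotated genes, and stood at 77.6%, 70.8% and 59.0% in the G0 pools and at 78.7% and 88.2% in the G5 pools. The groups were apart at both, by 6.19 points in the coding sequence and by 1.05 points at the distal position. Neither passed limma (adjusted p = 0.0684 and 0.0945), with 1 of the 2 at an unadjusted p under 0.05.

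Taken over the 10 genes, the groups did not overlap at 25 of 28 positions (89.3%), against 85.6% of all listed positions. By direction it was 19 of 21 higher positions against a background of 86.9%, and 6 of 7 lower positions against 83.9%. Limma passed 4 of 28 positions (14.3%), against 33.1% of all listed ones. By direction it passed 2 of 21 higher positions against a background of 33.2%, and 2 of 7 lower positions against 33%. An unadjusted p under 0.05 was reached by 14 of the 28 (50%), against 67.4% of all listed positions. Of the 28 positions 13 lay in 1 exon of Neurl1b. Without Neurl1b the groups did not overlap at 13 of 15 positions (86.7%), and limma passed 3 of 15 (20%). An unadjusted p under 0.05 was then reached by 11 of 15. The 4 past limma were those of Bmp6, Smad7, Dll4 and Neurl1b named above. All positions had been selected by the authors on the same 5 pools, so these counts describe the listed positions and are no independent evidence of a difference. None of the 4 passed when any 1 G0 pool was left out. Without G0 pools 1, 2 and 3, limma passed 0, 9 and 0 of all listed positions, and 5, 6 and 4 BMP and SMAD positions and 6, 3 and 6 Notch positions of these genes had an unadjusted p under 0.05. Of all listed positions 46.6%, 43.6% and 41.9% had one in these fits. Without G5 pool 1 the calls were those of Bmp6 and the nearer Smad7 position, Dll1 and the Dll4 position at -1587 bp. Without G5 pool 2 they were both Smad7 positions, Bmp2 and the Skor1 position at 1389 bp, and 0 Notch positions, of which 2 had an unadjusted p under 0.05. Limma passed 33.1% and 29.7% of all listed positions in these 2 fits. In both fits G5 is a single pool that is assumed to vary like the others, so a call made in them is no sign of stability. With 3 and 2 pools there are 10 ways to assign the labels, so the smallest exact permutation p is 0.1.

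**Figure D3:**
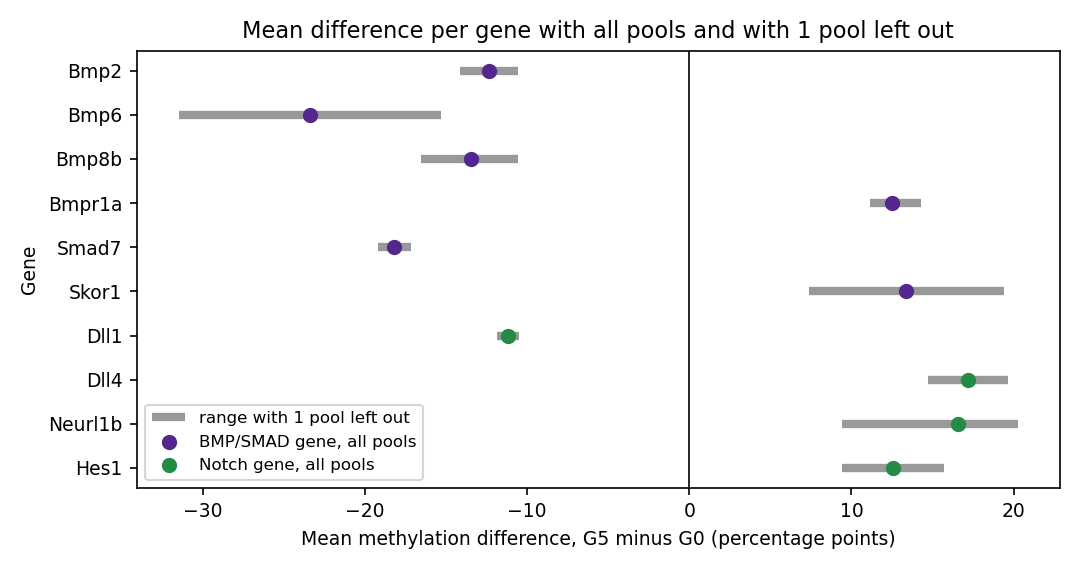
Mean methylation difference, G5 minus G0, in percentage points (horizontal axis) for each gene (vertical axis), averaged over its listed positions; dots use all 5 pools and grey bars span the values with 1 pool left out. No bar crosses 0, as the positions were selected for their direction, and the bars of Bmp6, Skor1 and Neurl1b are the widest.

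The other genes of both pathways were followed with lists of 59 BMP and SMAD genes and 49 Notch genes. Leaving out the 10 genes above, 10 of 53 BMP and SMAD genes (18.9%) and 5 of 45 Notch genes (11.1%) had a listed position. Of the 21900 protein-coding genes of RefSeq 10.8% had one, 6.28% a higher and 5.82% a lower one. The further 15 BMP and SMAD positions were 8 higher and 7 lower, with 13 free of overlap and 5 past limma. The further 8 Notch positions were 6 higher and 2 lower, with all 8 free of overlap and 3 past limma. Of all listed positions 85.6% were free of overlap and 33.1% past limma. None of these 8 further limma calls was made with G0 pool 1, 2 or 3 left out, when 7, 9 and 9 of the further positions had an unadjusted p under 0.05. Across all listed positions the shares with such a p were 46.6%, 43.6% and 41.9%. No position was listed for the transducing SMAD genes Smad1, Smad4, Smad5 and Smad9, or for the receptor genes Notch1 to Notch4.

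Listed BMP ligands numbered 4 of 15, all lower, but 3 of these are among the 10 genes, which were taken from the tables. Of the other 12 ligand genes 1 (8.33%) was listed, Gdf2, whose single position overlapped between the groups. Both listed genes of secreted BMP antagonists were higher. The promoter island position of Fst, which encodes the activin and BMP binding protein follistatin, stood at 6.06%, 0% and 0% in the G0 pools and at 26.5% and 24.0% in the G5 pools. It rose by 23.2 points (SE 4.34; limma, adjusted p = 0.0412), while a second Fst position, in an intron, overlapped between the groups at 10.5% ± 4.51 (SD, n = 3) and 26.3% ± 17.8 (SD, n = 2). Chrd, the gene of the BMP antagonist chordin, had a promoter island position at 0% in all 3 G0 pools and at 6.67% and 20.7% in the G5 pools (limma, adjusted p = 0.0687).

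Among intracellular regulators, the promoter island position of Smurf1, a ubiquitin ligase that marks SMADs and receptors for breakdown, stood at 0%, 0% and 3.57% in the G0 pools and at 8% and 29.6% in the G5 pools (limma, adjusted p = 0.0694). Skor2, the close relative of Skor1, had exonic island positions in both directions. Of its 2 higher positions, at 2599 and 2615 bp from the start site, the first rose by 21.9 points (SE 6.46; limma, adjusted p = 0.0487). The second had 13.2% ± 3.17 (SD, n = 3) in G0 against 25.9% ± 0.708 (SD, n = 2) in G5 (limma, adjusted p = 0.0555). The lower one, at 3686 bp, had 17.9% ± 1.68 (SD, n = 3) in G0 against 7.66% ± 6.20 (SD, n = 2) in G5 (limma, adjusted p = 0.0870). The remaining listed BMP and SMAD genes were the decoy receptor gene Bambi, the co-receptor gene Rgma and the target gene Id3, each with 1 lower position, and the homeobox target genes Msx1, with 2 higher, and Msx2, with 2 lower positions. Far from the start sites lay those of Rgma (-62855 bp) and Id3 (-42972 bp), 1 of Msx1 (-69315 bp) and 1 of Msx2 (-280913 bp). These far positions had no promoter, exon or intron flag, so their link to the gene is by distance only.

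Of 4 genes of ligand ubiquitin ligases 3 were listed, all higher, but Neurl1b among them was taken from the tables. Of the other 3 genes 2 (66.7%) were listed, Neurl1a, a relative of Neurl1b, and Mib1, the Mind bomb ligase. Their 3 positions were free of overlap, and 0 of the 3 passed limma. The Mib1 position had promoter, exon and island flags, although at 559 bp downstream of its start site it lay beyond the 500 bp set for promoters. It stood at 3.67%, 3.06% and 7.22% in the G0 pools and at 17.4% and 16.5% in the G5 pools (limma, adjusted p = 0.0551). An intronic position of Neurl1a stood at 97.9%, 48.1% and 99.2% in the G0 pools and at 100% in both G5 pools. G0 pool 2 was thus the low one there as in Neurl1b. The difference of 18.3 points missed the threshold (SE 15.6; limma, adjusted p = 0.288). The exonic island position of Neurl1a, 24490 bp from the start site, had 4.77% ± 1.75 (SD, n = 3) in G0. In G5 it had 14.7% ± 1.94 (SD, n = 2), and it missed the threshold too (limma, adjusted p = 0.0731). Neurl1a was singled out after its values were seen. Dtx1, a Deltex ubiquitin ligase that acts on Notch receptors, had 2 higher intronic shore positions and 1 lower promoter island position. The higher ones rose by 21.5 points (SE 4.07; limma, adjusted p = 0.0412) and 19.1 points (SE 5.01; adjusted p = 0.0456). In the promoter island the G0 pools stood at 14.5%, 15.5% and 13.7% and the G5 pools at 0% and 2.74%, and methylation fell by 13.2 points (SE 3.98; limma, adjusted p = 0.0497). Dlk1, a Delta-like gene, had 1 lower position, at -125986 bp from its start site and linked to it by distance only.

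**Figure D4:**
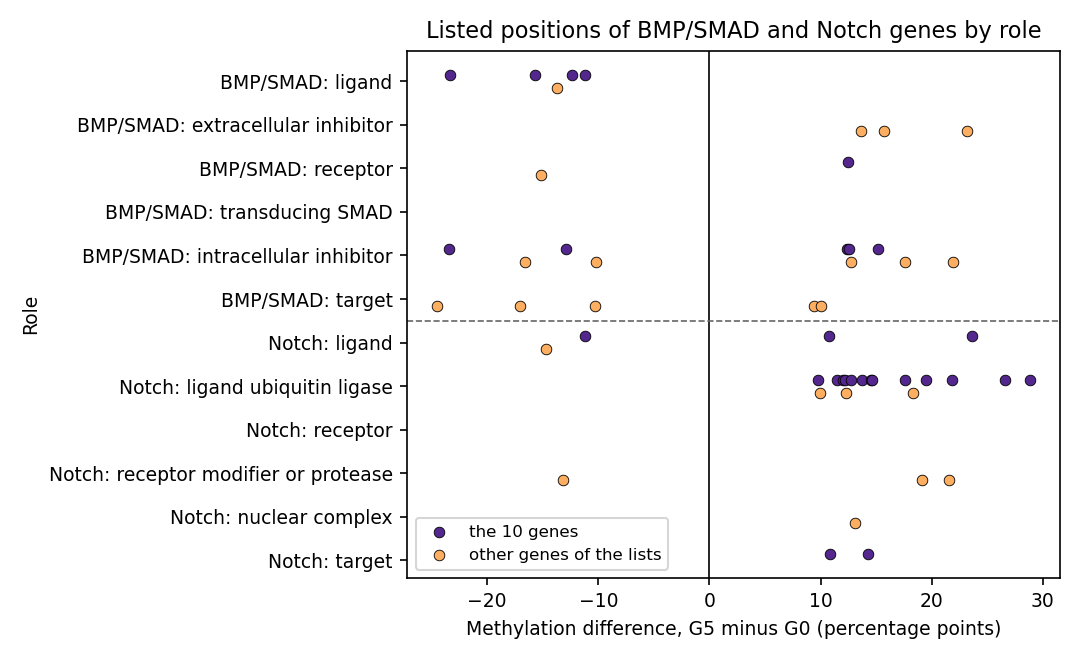
Methylation difference, G5 minus G0, in percentage points (horizontal axis) at each listed position of the BMP/SMAD and Notch lists, by role of the gene (vertical axis), with the 10 genes in purple and other list genes in orange. BMP ligand positions all lie left of 0 and those of ligand ubiquitin ligases all right of 0, and the rows of transducing SMADs and Notch receptors hold no point. The 10 genes and the lists were chosen with earlier results of these data known.

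The listed CpGs of the 10 genes lay mostly in islands, 21 of 28 (75.0%) against 36.5% of all listed positions. Without Neurl1b it was 8 of 15 (53.3%). A window of 200 bp around a position held a median of 16 CpGs without Neurl1b and of 10 over all listed positions, and from 5 at Bmp6 and Smad7 to 36 at Bmp2. In every case a CCGG lay within 24 bp, and within 39 bp for all listed positions. Windows of 300 bp were searched on both strands for GGCGCC, a motif of BMP response elements, and for TGGGAA, the core of the site of the Notch effector RBPJ. GGCGCC was found around 16 of 28 positions (57.1%), against 19.4% of all listed positions, and 13 of the 16 are the overlapping windows of Neurl1b. Outside Neurl1b it was found around 3 of 15 (20%), in Bmp2, Skor1 and Hes1. TGGGAA was found around the positions of Bmp2 and Dll1, 2 of 28 (7.14%), or 2 of 15 (13.3%) outside Neurl1b, against 20.8% of all listed positions.

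By mean levels over the 5 pools, the genes most like Neurl1b among 73 others with at least 5 higher positions were 4930448C13Rik, 4933407K13Rik and 4933432K03Rik. Their Euclidean distances were 17.4, 18.8 and 20.2 points, and each had over 70% methylation in every pool. The genes most like Skor1, among 74, were Gm996 at 3.24 points, Hic1 at 15.5 points and Foxe1 at 16.1 points. Gm996 stood at 22.5% in G5 pool 1 and 11.4% in G5 pool 2, where Skor1 stood at 24.1% and 12.1%.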

How the data were processed

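Cytosine methylation was measured in 5 pools of sorted common myeloid progenitors. Per the submitters' processing notes, Bismark 0.7.11 with Bowtie placed the reads on mm10, and methylKit was used. The design text of the series adds that methylKit ran Fisher's exact test, which on pooled reads does not count the spread between pools. It sets promoters at 1 kb before to 500 bp after RefSeq starts. The coverage minimum is not stated there. Per the file headers, the deposited tables give the percent methylation of each pool, the authors' p-value and q-value, and annotation flags. Every q-value was at most 0.00999 and every absolute difference at least 10.0 points. No coverage is given, so no counting interval was possible, and CpGs that were not listed cannot be compared. The model of methylated read counts planned for tables with coverage was not run.

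All 4688 positions fell on a CpG cytosine when counted from 0, 2332 on the minus and 2356 on the plus strand. Percents were tested with limma 3.58.1 (R 4.3.3) over all listed positions with Benjamini-Hochberg adjustment at 0.05, after a test on simulated data. Group means and SDs are over pools, after averaging a gene's positions within a pool. Per the labels the pools are separate pools of mice. Python 3.11.15, pandas 2.3.3 and pysam 0.24.0 were used for the rest. The 10 genes and the pathway lists were chosen with earlier results of these data known. Of the list genes counted, 1 is not reported here by name. Values of other pathway genes are given where a gene had a position without overlap and a promoter position or at least 3 positions. Genes of like pattern were the 3 with the smallest distance to the member with most positions in each pathway. Alternatives left out each pool, added a replicate block, used a log2 ratio scale (offset 1), a variance trend, q-values under 0.001, both strands averaged, medians, the authors' differences, a gap of 5 points and a limit of 10 kb.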

Additional observations from a re-analysis of the deposited data

How the results depend on the processing

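Directions of the 10 mean differences held under every alternative run, but the positions had been selected for direction on the same pools. Of 141 recomputed values 110 stayed within the spread between pools or, for counts, within 1.5 times. Some mean differences could not move, such as medians over 1 or 2 positions and strand averages outside Neurl1b. The tally is therefore no measure of robustness. With 1 pool left out, the number of positions past limma ranged from 0 to 4 for BMP and SMAD genes and from 0 to 2 for Notch genes, against 2 each with all pools. With a G5 pool left out the lone pool is assumed to vary like the others. The numbers past limma were 8 and 10 on the log2 ratio scale and 6 and 5 with a variance trend, where 1937 and 2315 of all 4688 listed positions passed, against 1551. For BMP and SMAD positions with an authors' q-value under 0.001 it was 4, with 1145 of all 1970. With the replicate block limma passed 0 of all listed positions and so 0 and 0 of these, when 1526 in all and 3 and 5 of these had an unadjusted p under 0.05. Pools share only a number, with correlations of their deviations of 0.0124 and 0.0476, so no pairing was assumed. At a q-value under 0.001 the BMP and SMAD positions left were those of Bmp6, Skor1 and the nearer one of Smad7. The groups were apart at 4 of these, all but the Skor1 position at 1389 bp. With no limit on the q-value, positions without overlap numbered 8 of 10 and 17 of 18, against 85.6% of all listed positions. Groups were at least 5 points apart at 7 BMP and SMAD positions and at 7 Notch positions. With 1 pool left out, positions without overlap ranged from 8 to 10 and from 17 to 18. For the gap of 5 points and for these ranges the share over all listed positions was not counted.

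The pathway lists had 4 higher and 3 lower BMP and SMAD genes at a q-value under 0.001, against 7 and 10, and within 10 kb of a start site 6 lower BMP and SMAD genes and 3 higher Notch genes, against 10 and 7. Mean differences with 1 pool left out ran from -14.1 to -10.6 points in Bmp2, -31.5 to -15.3 in Bmp6, -16.5 to -10.6 in Bmp8b, -19.2 to -17.2 in Smad7 and -11.9 to -10.5 in Dll1. They ran from 11.2 to 14.3 in Bmpr1a, 7.38 to 19.4 in Skor1, 14.8 to 19.6 in Dll4, 9.41 to 15.7 in Hes1 and 9.42 to 20.3 in Neurl1b. At a q-value under 0.001, 1 position was left in Dll4, at 23.7 points, and 1 in Smad7, at -23.5 points. No position was left in Bmpr1a, Bmp2 and Bmp8b, so they have no such value. The cause of the other shifts was not tested. The depth behind each level is unknown, so no interval could be given for a single one.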
